A study of Mus musculus with 3 samples.

Results

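The cytosolic ribosome of mouse cells is built from ribosomal RNA and a set of ribosomal proteins, nearly all essential, and the messenger RNAs of their genes were described here in macrophages. The members were the protein-coding genes whose symbol is Rpl or Rps followed by a number with an optional letter, number or final l, together with Rplp0, Rplp1, Rplp2 and Rpsa. This rule on names found 84 of the 22028 protein-coding genes and 55536 genes in the tables, 52 of the large and 32 of the small subunit, and used no measured value. It leaves out ribosomal proteins with other symbols, such as Fau and Rack1, and Rps4l, which the annotation calls a pseudogene.

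Each macrophage library came from bone marrow-derived cells of C57BL/6J mice, primary phagocytes grown from marrow. All 3 libraries belong to 1 group: the cells had lipid A, the part of bacterial lipopolysaccharide that Tlr4 senses, at 100 ng/ml for 12 h, then 12 h without it, and were taken at 0 min of a second dose. RNA of the cytosolic fraction was sequenced after removal of ribosomal RNA. The labels number them as biological replicates 1, 2 and 3 under 1 donor identifier and do not say whether they are separate animals, so the spread between them may be technical. No genetic change beyond the strain and no age or sex is given. With 1 group there is no treatment to compare, and every value below describes this state alone. In RNA from a whole culture, fewer cells with a message and less of it per cell cannot be told apart.

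A ribosome has a small subunit, which reads the messenger RNA, and a large subunit, which joins amino acids and lets the new protein leave through a tunnel. Ribosomal protein messenger RNAs are among the most abundant of growing cells, and most begin with a cytosine followed by a run of pyrimidines, the terminal oligopyrimidine (TOP) tract, through which the kinase mTOR and the binding protein Larp1 control their translation. Their genes are copied back into the mouse genome many times as processed pseudogenes, which makes reads hard to place, and several have a second functional gene, a paralogue.

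The TOP tract is shown first, as the sequence described for this class of messenger RNAs. Whether the annotated starts used below are the starts used in these cells was not tested. RefSeq starts (GRCm38.p6) were given for 64 of the 84 genes. A cytosine at the first transcribed base with at least 4 more pyrimidines on the transcribed strand was found in 13 of the 64 (20.3%), against 3.01% of the 27025 genes with such a start and 2.71% of the protein-coding ones. With a cytosine and at least 7 more pyrimidines beginning within 10 bases of the start, the numbers were 24 genes (37.5%), 9.43% of all and 9.76% of protein-coding genes. The following lines show 15 bases before and 15 bases from the start, 5′ to 3′, with the tract in capitals. The first 8 begin exactly at the annotated start, and in Rps24, Rpl13a and Rpl7a the tract lies within 10 bases of it.
Rps27: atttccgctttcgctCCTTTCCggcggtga
Rpl38: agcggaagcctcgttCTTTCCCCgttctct
Rps10: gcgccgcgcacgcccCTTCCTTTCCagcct
Rpl15: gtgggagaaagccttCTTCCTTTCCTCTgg
Rps18: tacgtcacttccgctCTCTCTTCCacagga
Rps6: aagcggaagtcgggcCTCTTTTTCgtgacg
Rpl28: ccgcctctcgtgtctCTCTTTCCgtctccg
Rpl35: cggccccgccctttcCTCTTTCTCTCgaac
Rps24: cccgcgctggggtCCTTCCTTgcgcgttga
Rpl13a: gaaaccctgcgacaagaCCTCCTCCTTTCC
Rpl7a: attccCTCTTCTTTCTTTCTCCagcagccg
These windows lie at chr3:90213634-90213663 on the minus strand for Rps27, chr11:114668565-114668594 on the plus strand for Rpl38, chr17:27635230-27635259 on the minus strand for Rps10 and chr14:18270972-18271001 on the minus strand for Rpl15. The next are at chr17:33955651-33955680 on the minus strand for Rps18, chr4:86857353-86857382 on the minus strand for Rps6, chr7:4792950-4792979 on the plus strand for Rpl28 and chr2:39005117-39005146 on the minus strand for Rpl35. The last are at chr14:24490663-24490692 on the plus strand for Rps24, chr7:45128731-45128760 on the minus strand for Rpl13a and chr2:26910792-26910821 on the plus strand for Rpl7a. The genes with a tract exactly at the start had a median of 183 TPM (n = 13), those with one only near it 202 TPM (n = 12), and those with neither 121 TPM (n = 39). The last group ran from 0 to 771 TPM. The 20 genes without a given start had a median of 179 TPM. Whether level goes with the tract was not tested. TPM, the unit of the deposited levels, is corrected for transcript length and scaled to a fixed total per table.

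Other promoter letters were counted on both strands of the same starts, in a window of 250 bases before and 50 after. The letters CCGGAAG, the core that Ets-type factors bind, were found in 26 of 64 genes (40.6%) and in 9.93% of all promoters (13.4% of those of protein-coding genes). GGGCGG, the Sp1 box, was in 62.5% against 38.2% of all and 51.0% of protein-coding promoters, and AAGATGGC, the letters of YY1, in 9.38% against 3.19% and 3.64%. TATAAA, the TATA box, was in 10.9% against 15.7% and 14.3%. Each count is a match of letters, not a bound site.

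Before the levels, 1 library has to be set apart. Depth was 28981178, 53119941 and 46783133 expected counts on gene rows in replicates 1, 2 and 3. Replicate 3 held 1343 TPM of Malat1, a long RNA kept in the nucleus, against 158 and 91.1 in replicates 1 and 2, and Neat1, also nuclear, was at 16.8, 10.4 and 91.4 TPM. All 10 macrophage markers were at 10 TPM or more in every library. None of the 6 neutrophil markers, and none of the markers of B, T and NK, erythroid, stromal, mast, dendritic cells or megakaryocytes, reached 1 TPM in any library. Their summed levels ranged from 0.71 to 1.24 TPM for neutrophils and stayed at or below 0.51 TPM for each other type. Cd79a, Klrb1c, Hbb-bs, Hba-a1, Col1a1, Col3a1, Pdgfra and Ms4a2 were listed at 0 in all 3.

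Nearly all ribosomal protein genes were expressed. In every library 81 of the 84 held at least 1 TPM, and the same number held at least 10 TPM, where 17.1% of protein-coding genes did. At higher levels, 60 held at least 100 TPM and 9 at least 300 TPM. The median level was 165, 174 and 153 TPM in replicates 1, 2 and 3, a mean of 164 ± 10.5 (SD, n = 3), and the interquartile range of the genes ran from 96.5 to 228 TPM on average. Together they held 1.32 ± 0.167% of protein-coding expected counts and 5.19 ± 0.527% of protein-coding TPM (SD, n = 3). The second share is larger because TPM divides by length and these transcripts are short. Leaving out Rpl10l, Rpl3l and Rpl39l, the highest gene stood at 66.7, 51.4 and 45.4 times the level of the lowest in replicates 1, 2 and 3. By mean TPM, 12 were among the 100 most abundant protein-coding genes and 64 among the 500 most abundant.

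**Figure D1:**
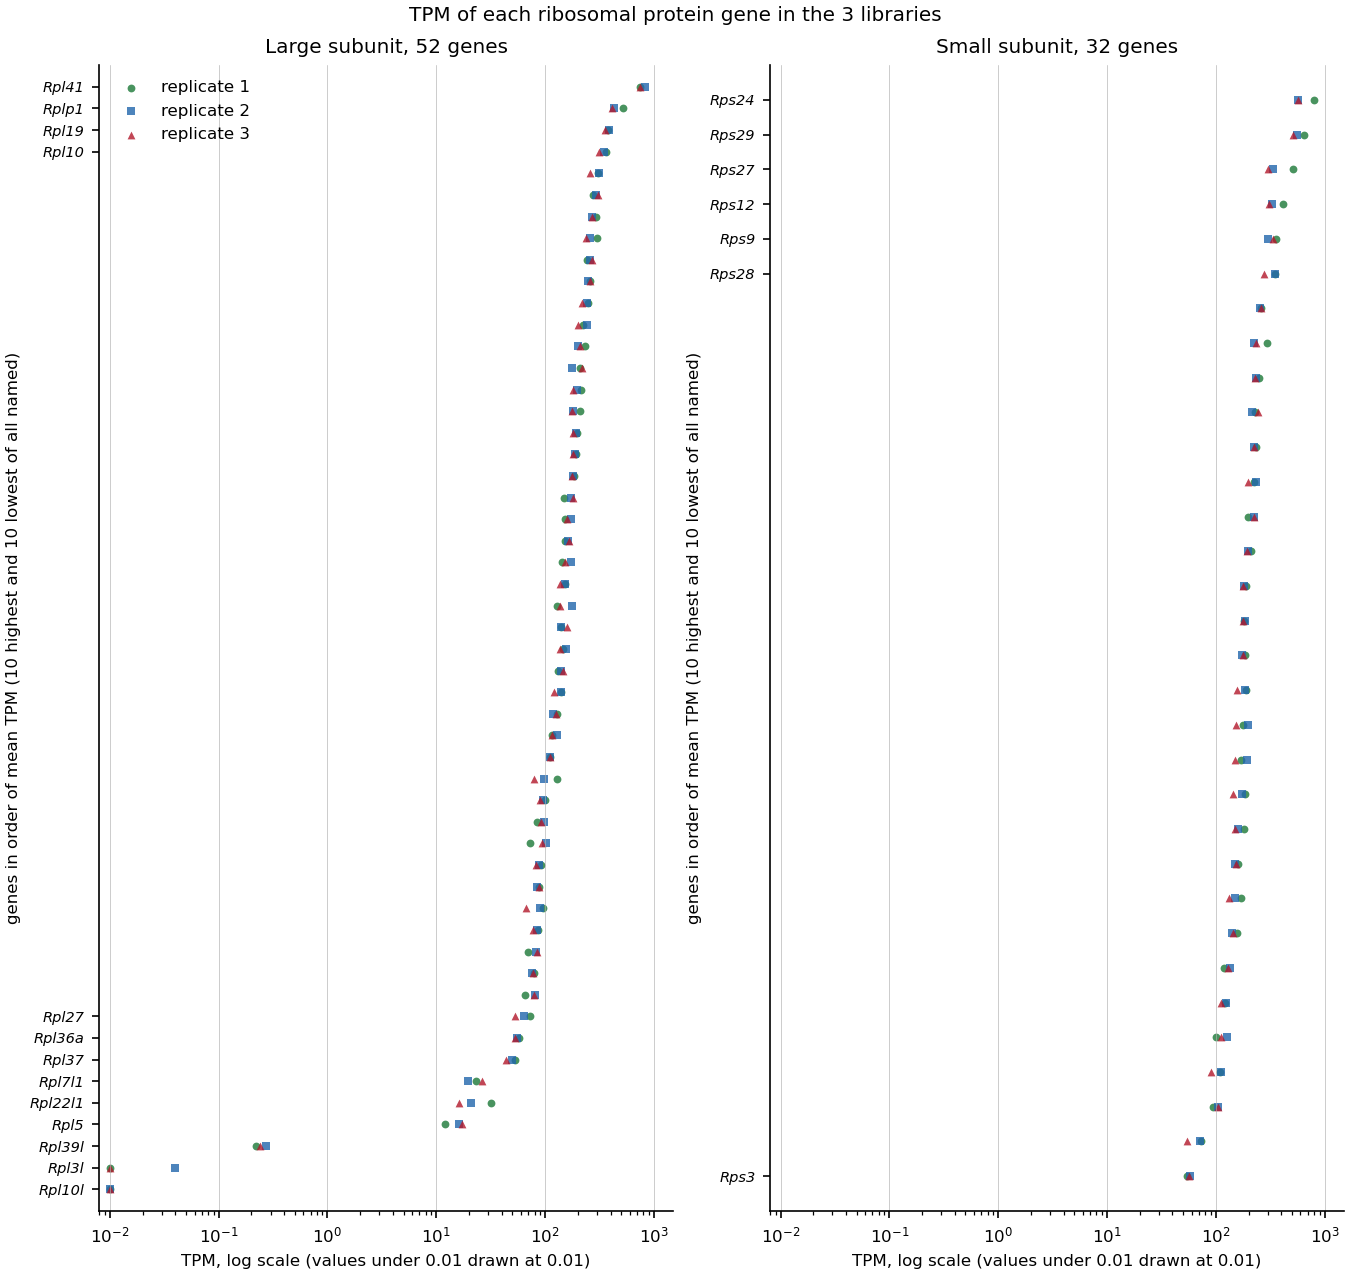
Deposited TPM (horizontal, log scale) of each large-subunit gene (left) and small-subunit gene (right), ordered by mean (vertical, with the 10 highest and 10 lowest of all named), with 1 mark for each of the 3 libraries. All but 3 genes, Rpl39l, Rpl3l and Rpl10l, lie above 10 TPM, and the marks of a gene lie close together beside the range between genes.

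The most abundant was Rpl41, which encodes a very short basic peptide at the interface of the subunits, at 744, 828 and 742 TPM in replicates 1, 2 and 3 (771 ± 48.9 TPM, SD, n = 3; chr10:128548114-128549305, minus strand, GRCm38). Its whole coding sequence of 78 bases, stop codon included, is printed because so short a message was the highest of all.
Rpl41: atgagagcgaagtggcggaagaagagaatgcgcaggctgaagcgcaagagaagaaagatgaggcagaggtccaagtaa
Rps24 followed at 797, 574 and 572 TPM and was highest in replicate 1. Rps29, a small zinc-binding protein of the head of the small subunit, was at 646, 560.4 and 518 TPM, highest in replicate 1 by TPM only. By the scaled counts described further on, Rps29 was highest in replicate 2, while Rps24 stayed highest in replicate 1. Then came Rplp1 at 454 ± 61.7 TPM, Rps27 at 385 ± 112 TPM, Rpl19 at 374 ± 13.7 TPM, Rps12 at 351 ± 56.4 TPM and Rpl10 at 339 ± 25.8 TPM (SD, n = 3). Rps9 and Rps28 closed the 10 highest with 332 ± 28.9 TPM and 326 ± 43.5 TPM. The ranges of all neighbours in this order overlapped over the 3 libraries. Within each library, Rps24 was above Rps29, Rps29 above Rplp1 and Rplp1 above Rps27. The other neighbours changed order between libraries, so their order is not resolved. With the near-identical copies described further on added, Rps29 was above Rps24 in replicate 1, at 835 against 801 TPM.

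At the low end, Rpl10l had no count in any library, Rpl3l 0, 3 and 0 counts and Rpl39l 6, 15 and 10 counts. A count of 0 allows up to 3 counts, or 0.104, 0.0565 and 0.0641 counts per 1000000, for counting error only. The other low genes were Rpl5 at 12.0, 16.1 and 17.2 TPM, Rpl22l1 at 31.7, 20.8 and 16.3 and Rpl7l1 at 23.1, 19.7 and 26.1 TPM. Rpl37, Rpl36a, Rps3 and Rpl27 ranged from 48.6 to 63.4 TPM on average. Rpl5 is a single essential protein of the large subunit, yet it was listed below these 2 paralogues in replicates 1 and 2. With the near-identical copies described further on added, Rpl5, Rpl27 and Rpl36a were no longer among the 10 lowest.

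Small-subunit genes were higher than large-subunit genes. Their median was 187, 190.1 and 177 TPM in replicates 1, 2 and 3, against 140.1, 147 and 138 TPM. On the log2(TPM + 1) scale the large-subunit median was lower by 0.41, 0.37 and 0.36, that is a difference of -0.38 ± 0.03 (SD, n = 3), and had the same sign in 3 of 3 libraries. With the 3 genes under 1 TPM left out, all of the large subunit, it was -0.31, and with near-identical copies added to each gene -0.25. With 3 libraries no exact test could pass a threshold of 0.05, and none was run. Shorter genes were listed higher: across the 84 genes, Spearman's rho between mean TPM and transcript length was -0.45, a description in which TPM is itself divided by length.

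By role, the stalk of the large subunit, which draws elongation factors to the ribosome, had unequal messages. Rplp0, the base of the stalk, was at 190.4, 189.8 and 181 TPM in replicates 1, 2 and 3, and its partners Rplp1 and Rplp2 were at 524, 430.0 and 408 and at 211, 178 and 216 TPM. Rplp1 was above Rplp0 and Rplp2 in every library, and Rplp0 and Rplp2 overlapped. Rpl12, next to the stalk base, was at 92.4, 88.4 and 82.5 TPM in this table.

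The pair that carries 5S ribosomal RNA into the large subunit and, when free, binds Mdm2, differed in assigned level, with Rpl11 at 131, 141 and 147 TPM and Rpl5 at 12.0, 16.1 and 17.2 TPM. With near-identical copies added, Rpl11 was at 139, 149 and 159.5 and Rpl5 at 114.9, 105.8 and 101.8 TPM, a much smaller gap. Around the exit tunnel, Rpl19 was highest at 378, 384 and 358 TPM, then Rpl23a at 309, 316 and 258, Rpl26 at 291, 269.9 and 271 and Rpl17 at 247, 242 and 219 TPM. Rpl4, which lines the tunnel, was at 117, 129 and 116 TPM, and Rpl39, a short protein in its wall, at 129, 97.2 and 78.9 TPM. Rpl35 and Rpl31 were lowest of these 8, at 89.2 ± 14.2 TPM and 84.0 ± 14.7 TPM (SD, n = 3). With near-identical copies added they were at 223, 239.8 and 209 and at 202, 175 and 149 TPM, above Rpl4 at 117, 129 and 116 and Rpl39 at 129.7, 100.3 and 79.6 TPM in every library.

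In the small subunit, the proteins of the messenger RNA entry channel were Rps2 at 197, 223 and 223 and Rps3 at 54.6, 58.3 and 56.9 TPM in replicates 1, 2 and 3. At the exit channel, Rps28 stood at 353, 349.6 and 276 and Rps26 at 119.5, 136 and 129.6 TPM, and at the beak Rps12 stood at 416, 326 and 312 and Rps10 at 212, 197 and 194 TPM. The 2 genes of each of these 3 sites did not overlap in any library. Rps27a, made as a fusion with ubiquitin, was at 249, 236 and 229.6 TPM. Fau, fused with a ubiquitin-like protein, was at 409, 399.8 and 406 TPM and Rack1, a scaffold on the small subunit, at 83.4, 87.7 and 89.9 TPM. Fau and Rack1 thus lay inside the range of the genes that the rule did find.

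Paralogues were compared within each library, in TPM as assigned to each gene. In 6 of 7 pairs the gene first named was higher in every library, and Rpl36al was the exception.

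**Figure D2:**
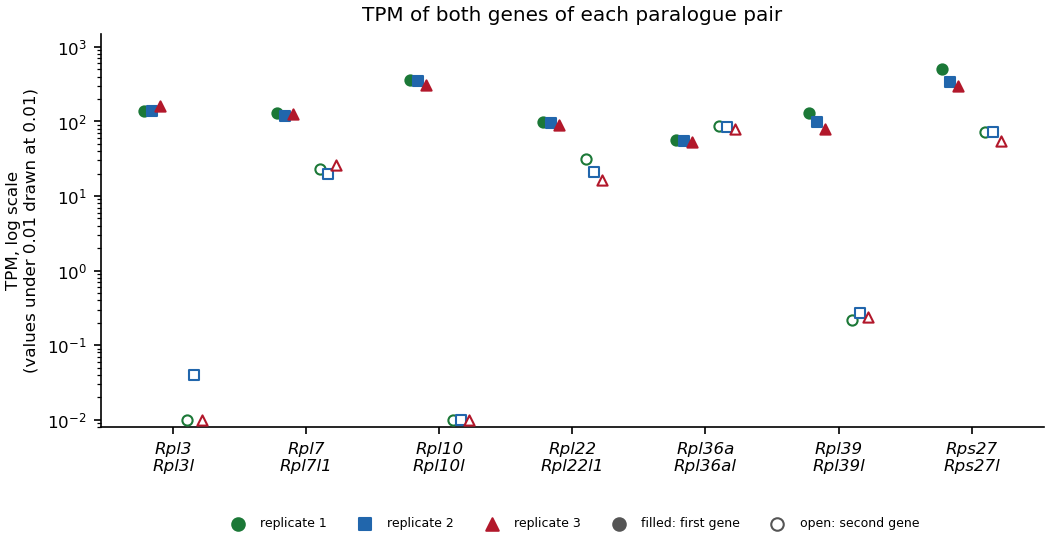
TPM (vertical, log scale) of both genes of each of the 7 paralogue pairs, filled marks for the first gene and open marks for the second, 1 mark per library. Rpl36al lies above Rpl36a in all 3 libraries, and in the 6 other pairs the second gene lies below the first.

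Rpl36a, on the X chromosome, was at 57.1, 55.1 and 53.2 TPM and Rpl36al, its retrocopy, at 87.0, 85.1 and 78.2 TPM. The ratio of Rpl36a to Rpl36al was 0.657, 0.647 and 0.681, or 0.662 ± 0.0176 (SD, n = 3), with coding sequences 87.9% identical. A pseudogene identical to Rpl36a in its coding sequence, Rpl36a-ps2, was listed at 40.1, 30.9 and 26.6 TPM from alignments. With all near-identical copies added to both genes the order turned in all 3 libraries, to 99.5, 87.4 and 82.5 TPM for Rpl36a and 87.6, 86.4 and 79.7 TPM for Rpl36al. The copies of Rpl36a include Dtnb, a protein-coding gene with a match of 93.8%, at 2.07, 1.21 and 2.22 TPM. In replicate 2 the gap was smaller than the TPM of Dtnb, so the turn there rests on counting it as a copy.

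Rps27 and Rps27l encode the same zinc-ribbon protein with few changes, and Rps27l is known as a target of p53. Rps27 was at 513, 338 and 303 TPM and Rps27l at 72.6, 71.3 and 54.3 TPM, a ratio of 5.80 ± 1.17 (SD, n = 3). The ratio was highest in replicate 1, where Rps27 was well above its level in replicate 2 and Rps27l only slightly. Their coding sequences of 255 bases are shown with the 61 differing bases in capitals (76.1% identity), spread along the whole length.
Rps27: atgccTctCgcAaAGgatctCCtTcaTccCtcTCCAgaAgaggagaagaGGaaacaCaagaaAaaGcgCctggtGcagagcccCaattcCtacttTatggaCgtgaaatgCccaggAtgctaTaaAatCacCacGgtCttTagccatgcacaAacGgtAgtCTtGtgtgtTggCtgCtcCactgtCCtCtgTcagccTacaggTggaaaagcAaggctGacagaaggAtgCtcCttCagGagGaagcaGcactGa
Rps27l: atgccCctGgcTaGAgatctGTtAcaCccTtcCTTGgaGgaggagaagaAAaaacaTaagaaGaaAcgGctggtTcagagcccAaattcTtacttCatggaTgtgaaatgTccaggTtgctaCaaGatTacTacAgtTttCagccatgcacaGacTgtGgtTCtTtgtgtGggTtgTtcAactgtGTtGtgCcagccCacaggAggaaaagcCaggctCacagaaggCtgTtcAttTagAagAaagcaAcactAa
Rps27 lies at chr3:90212522-90213651, minus strand, and Rps27l at chr9:66946086-66949516, plus strand (GRCm38).

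Rpl39 and Rpl39l differ more in level and less in sequence. Rpl39 was at 129, 97.2 and 78.9 TPM and Rpl39l, known from testis, at 0.22, 0.27 and 0.24 TPM, a ratio of 588, 360.0 and 329. Rpl39l rested on 6, 15 and 10 counts, so the ratio is imprecise. The 23 bases that differ among 156 are in capitals (85.3% identity).
Rpl39: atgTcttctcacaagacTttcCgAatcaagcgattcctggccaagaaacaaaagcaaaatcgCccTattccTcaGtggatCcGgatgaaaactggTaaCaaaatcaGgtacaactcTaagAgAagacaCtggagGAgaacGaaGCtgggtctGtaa
Rpl39l: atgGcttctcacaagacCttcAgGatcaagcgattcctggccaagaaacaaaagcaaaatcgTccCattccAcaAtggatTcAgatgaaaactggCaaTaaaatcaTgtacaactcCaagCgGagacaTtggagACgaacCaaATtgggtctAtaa
Rpl39 lies at chrX:37082520-37085402, minus strand, and Rpl39l at chr16:10170226-10174911, plus strand.

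Rpl22 was at 98.8, 94.8 and 89.8 TPM and Rpl22l1 at 31.7, 20.8 and 16.3 TPM. Their ratio was 3.12, 4.56 and 5.50. Rpl22l1 was highest in replicate 1 and lowest in replicate 3, while Rpl22 varied little. Rpl7 stood at 129, 119 and 125 and Rpl7l1 at 23.1, 19.7 and 26.1 TPM, a ratio of 5.47 ± 0.640 (SD, n = 3), with 59.9% of coding bases identical. Rpl3 was at 139.7, 139.8 and 159 TPM while Rpl3l, known from heart and skeletal muscle, was listed at 0, 0.04 and 0 TPM. Rpl10 was at 360.3, 346 and 310.2 TPM while Rpl10l, an intronless gene of testis, was at 0. No fold is given against Rpl3l and Rpl10l, which were at 0 in 2 or all 3 libraries. Rps4x and the pseudogene Rps4l stood at 158, 141 and 144 and 1.55, 1.81 and 1.87 TPM.

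Near-identical copies of these genes took part of the reads, and how many depended on the table. Searching the annotated transcripts for at least 90% identity over at least 80% of a coding sequence found copies of 79 genes in 1026 other genes, 988 of them pseudogenes. Rpl7a had 78, Rpl21 77 and Rpl29 65, and 25 genes had a copy identical over the matched bases. The copies together were given 8.70% of the TPM of genes plus copies in the alignment-derived gene table and 12.8% in the table made directly from the reads. 64 of the copies held 1 TPM or more in every library.

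Unscaled TPM of the 2 tables are not on 1 scale. In replicates 1, 2 and 3, protein-coding genes held 31.0, 27.2 and 31.6% of TPM from alignments. From reads they held 14.4, 12.2 and 8.71%. With each table scaled to protein-coding genes, the 2 gave nearly the same level for most genes and very different ones for a few. After this scaling 55 of 83 genes differed by under 1.1-fold, and 5 by over 1.5-fold. Rps12 was at 416, 326 and 312 TPM from alignments and at 7.11, 7.26 and 3.40 TPM from reads, a log2 ratio of -4.57 after scaling. In the read-derived table an identical copy annotated as protein-coding, Rps12-ps3, held 225, 165 and 93.0 TPM, against 10.8, 6.35 and 5.42 in the alignment-derived one. With copies added, Rps12 differed by 0.21.

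Rpl12 showed the same, at 92.4, 88.4 and 82.5 TPM from alignments and 1.65, 1.69 and 1.29 TPM from reads, where the identical pseudogene Gm10275 held 90.1, 84.6 and 45.6 TPM. Rpl10 was at 360.3, 346 and 310.2 TPM from alignments and 30.8, 26.3 and 17.6 TPM from reads, and its copy Rpl10-ps3 at 13.8, 15.95 and 12.6 TPM from alignments and 142, 134 and 66.5 TPM from reads. The log2 ratios after scaling were -4.46 and -2.44 alone and 0.79 and 0.01 with copies. Rpl10 with its copies thus had nearly the same level in both tables, while Rpl12 with its copies did not.

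**Figure D3:**
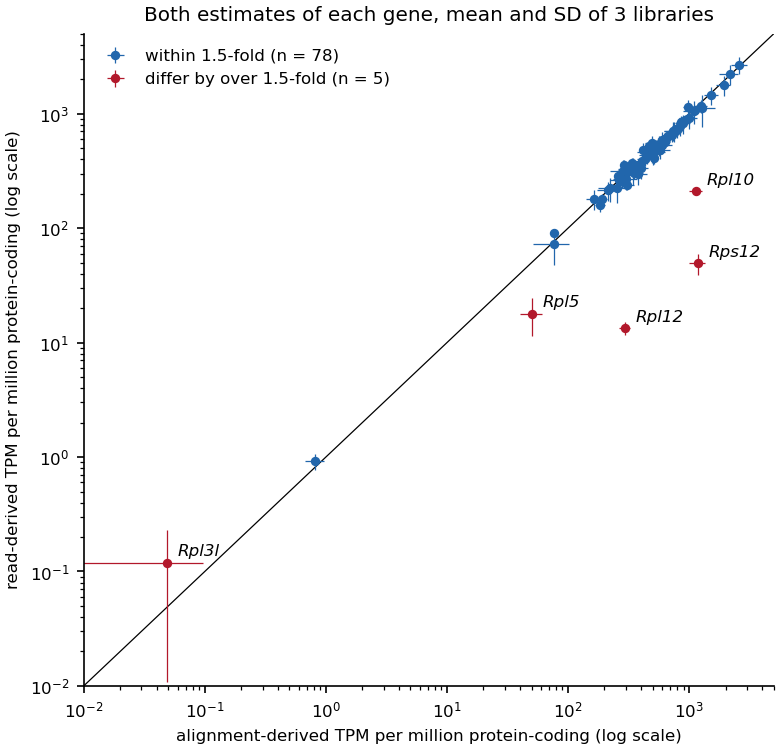
Mean of 3 libraries (bars: SD) of each gene in the alignment-derived table (horizontal) and in the read-derived table (vertical), scaled so that protein-coding TPM sums to 1000000, both axes logarithmic, with the line of equality. Rps12, Rpl12, Rpl10 and Rpl5 lie well below the line, Rpl3l lies above it near 0, and 78 genes lie within 1.5-fold of it.

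Rpl5 was low in both tables, and its identical copy Gm15500, a transcribed pseudogene, was higher in both, at 103, 89.7 and 84.6 TPM from alignments and 55.2, 50.8 and 27.0 TPM from reads. Copies held 86.0% of the TPM of Rpl5 plus copies in the first and 95.7% in the second. The posterior SD that the quantifier gave the count of Rpl5 was 3.15, 2.09 and 2.56%, against a median of 0.0738, 0.0552 and 0.0742% over the genes. Over 50% in the alignment-derived table also lay on copies of Rpl31 (52.0% and 47.8%, mostly the identical Rpl31-ps8 at 106, 85.1 and 80.9 TPM from alignments), Rpl27 (64.1% and 59.0%), Rpl35 (60.2% and 63.0%) and Rpl27a (51.5% and 74.9%). The rank of these genes is a rank of the TPM assigned to them, and how their messages are split with the copies was not tested.

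The reverse, copies high from alignments and near 0 from reads, was seen for Rpl41 and Rps28. Gm10076, a non-coding gene identical to the Rpl41 coding sequence printed above, was at 427, 304 and 308 TPM from alignments and 0.617, 0.714 and 0.283 TPM from reads. Gm10443, identical to Rps28, was at 106, 41.2 and 65.2 TPM from alignments and at 0 from reads. Gm14303, identical to Rps29, was at 189, 3.98 and 4.06 TPM, high in replicate 1 alone, and at 0 from reads.

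**Figure D4:**
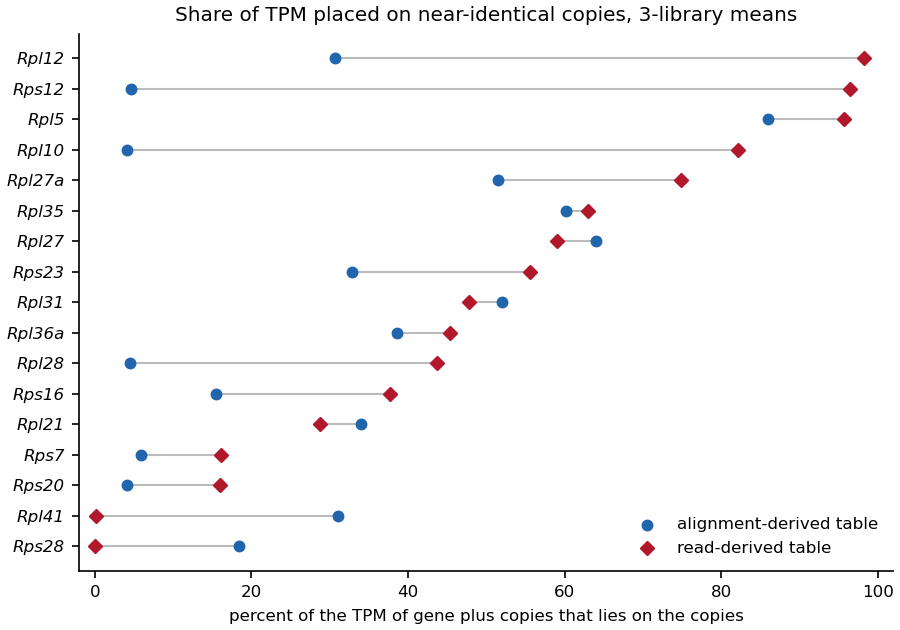
Percent of the TPM of a gene plus its near-identical copies that lay on the copies (horizontal), in the alignment-derived (circles) and the read-derived table (diamonds), means of 3 libraries, for expressed genes with at least 15% in either. Rps12 and Rpl10 move from under 5% to over 80%, Rpl41 and Rps28 move to under 1%, and Rpl5, Rpl35 and Rpl27 stay above 50% in both.

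The annotation gives these genes 501 transcripts, and in most genes a single one held nearly all of the TPM. Coding-class transcripts held 93.4 ± 0.680% of their TPM (SD, n = 3), retained-intron ones 3.45 ± 0.418% and those marked for nonsense-mediated decay 2.38 ± 0.178%. The coding class also includes transcripts without the whole coding sequence, such as Rps10-208 and Rpl28-203. Rpl28-203 led Rpl28 in both transcript tables, with 50.2% from alignments and 67.3% from reads. Among the 81 genes with a mean level of at least 10 TPM, 47 had 1 transcript with at least 90% of the TPM and 5 had none with 50%. The leading transcript differed between the 2 transcript tables in 6 of 83 genes: Rpl10, Rpl13a, Rps27a, Rps10, Rps23 and Rpl12.

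Rps24 held its TPM in several ends of the coding sequence. Its transcripts share the coding bases up to a lysine codon and then end in different ways, shown here from 21 bases before that point with the part that differs in capitals (chr14:24487125-24496959, plus strand, GRCm38).
Rps24-201: aatgttggtgctggcaaaaagTGA
Rps24-202: aatgttggtgctggcaaaaagTGA
Rps24-210: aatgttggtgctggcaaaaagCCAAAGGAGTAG
Rps24-205: aatgttggtgctggcaaaaagAAATGA
Rps24-201 was at 623, 416 and 398 TPM in replicates 1, 2 and 3 and Rps24-202, with the same end, at 21.4, 29.6 and 35.8 TPM. Rps24-210, with 3 further codons before its stop, was at 143, 122 and 127 TPM, 20.5 ± 2.30% of Rps24 (SD, n = 3) and 17.1 ± 2.09% in the read-derived table. The form with 1 further codon, Rps24-205, was listed at 0 from alignments and at 0.333, 0.228 and 0.0611 TPM from reads. The high level of Rps24 in replicate 1 lay in Rps24-201.

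For 7 genes the leading transcript in at least 1 table was not of the coding class, and in Rps20, Rps23, Rps16 and Rpl12 it shared nearly all of the coding sequence. Rps20-201, called retained intron, held 90.8, 90.9 and 89.2% of Rps20 and shared 358 of 360 coding bases in 1 run, from base 3 on. Rps23-203, a processed transcript, held 50.6, 44.3 and 47.6% of Rps23 and shared 428 of 432 bases. Rps16-203, called retained intron, held 74.3, 74.1 and 77.9% of Rps16 and shared 395 of 441 bases. These 3 are also shorter as a whole, at 582, 658 and 518 bases against 3706, 937 and 1109 for Rps20-203, Rps23-201 and Rps16-201. Within the coding sequence they part from the coding transcript only at its start, as the next lines show. The 12 bases before the shared run are in capitals and the first 15 of it in lower case.
Rps20-203, coding: CGCCTCAGCCATggcatttaaagatac
Rps20-201: TGGGTGATAACAggcatttaaagatac
Rps23-201, coding: CCGGCAAGATGGgcaagtgtcgtggtc
Rps23-203: CTGGAAATTTAAgcaagtgtcgtggtc
Rps16-201, coding: TCTTCGGACGCAagaaaacagccacgg
Rps16-203: CTCGCCCTTCACagaaaacagccacgg
The start codon ATG begins inside the capitals of Rps20-203 and Rps23-201 and is absent from the same place in their partners, while the rest of the coding sequence is shared. The genes lie at chr4:3831334-3835665, minus strand, chr13:90922958-90924950, plus strand and chr7:28350652-28353155, plus strand (GRCm38).

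Other leading transcripts lacked more. Rpsa-206, marked for decay, held 53.8, 54.7 and 54.9% of Rpsa, which encodes a protein that also acts as a laminin receptor, and shared the last 638 of 888 coding bases. Rpl13a was the most divided: Rpl13a-201, coding, held 33.7, 35.2 and 26.3% and Rpl13a-213, retained intron, 18.9, 30.4 and 25.7%, while the read-derived table put 14.8 and 24.7% on them. Rps10-201 and Rps10-208 were nearly equal in both tables, with 44.4 and 42.7% from alignments and 43.3 and 42.0% from reads, so which one led is not resolved. Rps27a-201 led with 55.3% from alignments and Rps27a-202 with 52.0% from reads, both coding.

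Intron-holding transcripts were also where replicate 3 stood out. Of 27 retained-intron transcripts at a mean of 0.5 TPM or more, 13 were over 2-fold higher in replicate 3 than in both others, 3 in replicate 2 and 0 in replicate 1. Among 154 coding ones these numbers were 5, 0 and 6. The same share over retained-intron transcripts of all genes is not given here. The pattern is therefore not shown to be particular to ribosomal protein genes. Rps23-202 was at 1.60, 1.93 and 11.0 TPM, and Rpl5-202 at 0, 0.15 and 2.12 TPM. Malat1 and Neat1 moved the same way in replicate 3, and the part of nuclear RNA in these values was not tested. By summed TPM the class as a whole was not highest in replicate 3 in the alignment-derived table, at 482, 583 and 527 TPM, most of it in Rps20-201, Rps16-203, Rpl15-206 and Rpl13a-213. As a share of the TPM of these genes in the read-derived table it was 3.14, 3.51 and 3.87%, highest in replicate 3.

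Many of these genes host small nucleolar RNAs, which guide the modification of ribosomal RNA, in their introns. The annotation places 58 such genes on the same strand inside 30 ribosomal protein genes, 5 of them in Rpl4, 4 in Rpl13a, and 3 each in Rps12, Rpl23a, Rpl17, Rpl7a, Rpsa and Rpl5. The hosts had a median of 161 TPM and the other genes 165 TPM. Only 3 had a count in every library: Snord15a and Snord15b in Rps3, with 1, 1 and 18 and 1.98, 0.92 and 23.9 expected counts, and Gm26448 in Rpsa, with 2, 1 and 37. All 3 were highest in replicate 3. Summed over the 58, scaled counts per 1000000 were 0.178, 0.0743 and 1.73. The same values over all small nucleolar RNA genes are not given here. The rise in replicate 3 is therefore not shown to be particular to those in ribosomal protein genes.

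Between the libraries, the ribosomal protein genes shifted together, and none of those tested reached a ratio of 2. Expected counts were scaled with TMM, a factor that sets most genes equal between libraries, and divided by the library total (scaled counts per 1000000). Of the 82 genes with a mean of 10 or more counts, 0 differed at an adjusted p of 0.05 and a ratio of at least 2 between the highest and lowest library, against 16.2% of all 13636 genes and 8.12% of protein-coding genes tested (chi-square test of homogeneity, Benjamini-Hochberg over all genes). Unadjusted p-values under 0.05 were found for 81 of the 82, and 81 had an adjusted p of 0.05 or less at any ratio, against 75.6% of all genes. With size factors from DESeq2 in place of TMM, 0 were called too. At a ratio of 1.5 it was 11 of the 82, against 27.2% of all genes. Among genes with a mean of 50 or more counts, 0 of 81 were called, against 7.01% of all such genes. The median ratio of the 82 was 1.36, larger than the 1.27 of protein-coding genes and the 1.31 of all genes tested. The test covers counting error only, so with these counts small shifts pass it.

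The shifts had a common direction. Replicate 2 was above the mean of the other 2 libraries in 82 of 82 genes and replicate 3 in 0, where 56.2% and 39.8% of protein-coding genes were. In replicate 1 they were 55 of 82, where 49.1% of protein-coding genes were. With DESeq2 size factors replicate 2 was above in 81, and with TMM over protein-coding genes in 79, while replicate 3 stayed at 0 in both. The median log2 deviation was 0.06 in replicate 1, 0.28 in replicate 2 and -0.36 in replicate 3. Over protein-coding genes it was -0.01, 0.04 and -0.07. Between replicates 1 and 2 alone, without replicate 3, 69 of the 82 were higher in replicate 2, by a median of 0.15 log2, against 53.9% of protein-coding genes. The highest library was replicate 1 for 13 genes, replicate 2 for 69 and replicate 3 for 0, against 33.3, 39 and 27.6% of protein-coding genes. The lowest was replicate 1 for 3, replicate 2 for 0 and replicate 3 for 79, against 31.3, 25.4 and 43.4%. Replicate 3 is the library with the most Malat1 and Neat1, whose part in these shifts was not tested.

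**Figure D5:**
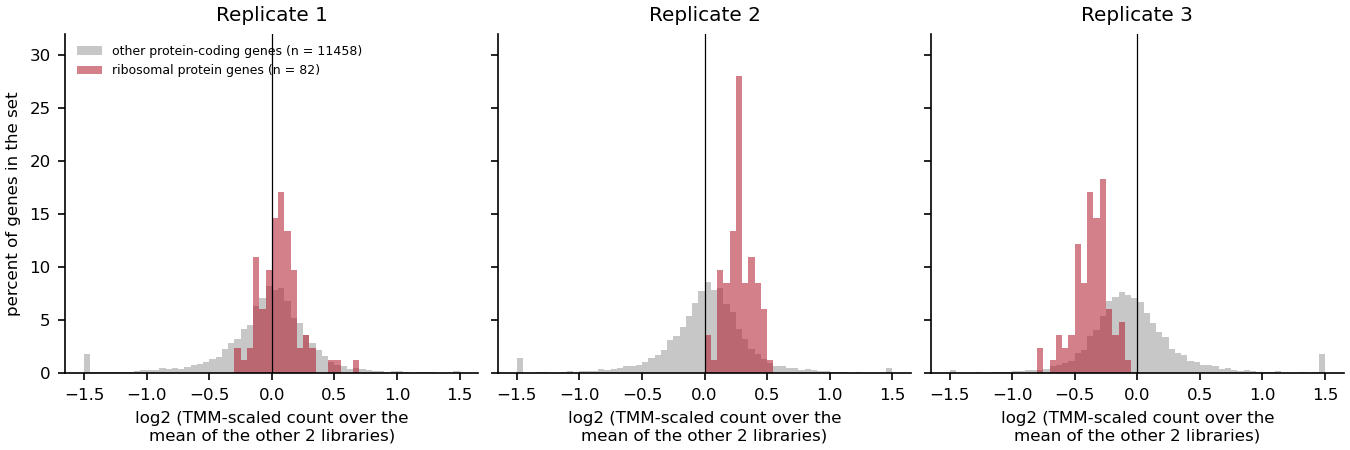
Distribution of the log2 ratio of the TMM-scaled count in 1 library to the mean of the other 2 (horizontal; values beyond 1.5 drawn at 1.5), as percent of each set (vertical), for the ribosomal protein genes and the other protein-coding genes tested. The ribosomal protein genes lie to the right of 0 in replicate 2 and to the left of 0 in replicate 3, and on both sides in replicate 1.

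The largest ratios were in Rpl22l1 (1.94), at 15.7, 11.9 and 8.09 scaled counts per 1000000 in replicates 1, 2 and 3, and Rpl39 (1.84), at 81.2, 69.3 and 44.2. Rpl31 followed with 1.72, Rps27 with 1.69, Rps27l with 1.67 and Rps28 with 1.63. Rpl22l1, Rpl39 and Rps27 were highest in replicate 1 and lowest in replicate 3, unlike most of the set, which was highest in replicate 2. The steadiest were Rpl3 (1.102), Rps14 (1.12) and Rpl35a (1.17).

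Length moved with part of this pattern. By TPM, 8 of the 10 shortest genes were highest in replicate 1, and by scaled counts 2, while for the 10 longest these numbers were 3 and 0. Transcript length minus effective length, which follows the fragment size, was 248, 222 and 226 bases in replicates 1, 2 and 3. A larger value lowers the effective length of short genes most and raises their TPM. TPM differences between these libraries were not equal to count differences, and not only for short genes. For replicate 1 over 3, the median log2 ratio of the 82 genes was 0.10 by TPM and 0.28 by scaled counts. These values were 0.30 and 0.38 for the 10 shortest and -0.04 and 0.20 for the 10 longest. Of the 82, 43 were highest in replicate 1 by TPM and 13 by scaled counts. The part of fragment size in this was not tested. Length also went with scaled counts: for replicate 1 over 3, Spearman's rho with length was -0.27 by scaled counts and -0.42 by TPM. The median log2 ratio of scaled counts was 0.38 for the 10 shortest and 0.20 for the 10 longest. For replicate 1 over 2 it was -0.15 in both groups.

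Genes that work with the ribosome, from lists of other translation genes, were set beside it. The 13 elongation factors and other TOP genes had a median of 79.4, 69.7 and 69.3 TPM, led by Eef1a1 at 945, 793 and 876, Tpt1 at 748, 533 and 450.1 and Pabpc1 at 208, 220.4 and 237 TPM, with Eif3f lowest at 27.3, 24.6 and 26.7. By the same chi-square test 0 of the 13 were called as differing between libraries at a ratio of 2, against 8.12% of protein-coding genes. In replicate 3, 0 were highest, against 27.6% of protein-coding genes. The median deviations of the 13 were 0.17, 0.19 and -0.28 log2.

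The 28 ribosome assembly factors were far lower, with a median of 4.88, 5.73 and 5.71 TPM. Npm1, at 67.4, 71.8 and 64.0 TPM, and Ncl, at 33.5, 40.1 and 44.3, both abundant nucleolar proteins, and Sbds, at 23.8, 22.2 and 23.4, led them, and Polr1b, a subunit of RNA polymerase I, was lowest at 1.06, 1.23 and 1.82 TPM. 22 of the 28 were highest in replicate 2, against 39% of protein-coding genes, and none was called, against 8.12% of protein-coding genes. Regulators of TOP messages and mTOR had a median of 6.58, 7 and 9.23 TPM, with Cnbp at 39.5, 36.7 and 39.9, Larp1 at 30.0, 25.8 and 36.9 and Rheb at 23.3, 22.1 and 21.6 TPM highest. Myc, which drives ribosomal genes, was lowest of these at 0.99, 2.29 and 1.33 TPM, and was highest in replicate 2. It was the 1 of 14 called, against 8.12% of protein-coding genes. The 5 genes that rescue stalled ribosomes had a median of 5.08, 4.11 and 5.61 TPM, with Hbs1l, Nemf and Ltn1 highest and Zfp598 lowest. None of the 5 was called, too few to set apart from the 8.12% of protein-coding genes.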

How the data were processed

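Cytosolic, ribosomal RNA-depleted RNA was sequenced in 3 libraries. Per the file headers, the deposited gene tables give expected counts, TPM and FPKM, posterior means with their SD in counts, and credibility bounds. Per the deposited notes, the gene table and 1 transcript table came from transcriptome alignments, and the other transcript table, with estimated counts and TPM, directly from the reads. Its transcripts were summed to genes. Deposited transcript tables also give the percent of the gene in each transcript. The labels name assembly mm10, and annotation M21 matched the identifiers. The aligner and the quantifier were not given in the sources used here.

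Expected counts, rounded to whole numbers, were put on 1 scale with TMM (edgeR 4.0.16, R 4.3.3) or, as an alternative, size factors of DESeq2 1.42.0. Each gene with a mean of 10 or more counts was tested for equal shares in the 3 libraries by a chi-square test, which covers counting error only, with Benjamini-Hochberg adjustment over all genes and a ratio of at least 2. The test was also run on simulated counts whose only spread was counting error. Such counts cannot show how it behaves under the further spread between real libraries. Rows that name no gene held 0.418, 0.248 and 0.165% of expected counts and were left out. Copies were sought with BLAST+ 2.17.0 and sequences handled with Biopython 1.88. Python 3.11.15, numpy 2.4.6, pandas 2.3.3, scipy 1.17.1 and matplotlib 3.10.9 did the rest.

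Some genes that these rules would name are not reported here. The genes, lists and tests were chosen with earlier results of these data known. Named were the 10 highest and 10 lowest genes by mean TPM, all paralogue pairs, the 6 largest and 3 smallest ratios between libraries, and the 6 largest differences between tables. Rpl27a, the sixth of these, stood at -0.38 log2. Also named were the 8 most abundant genes with a differing or non-coding leading transcript, the 6 with the most small nucleolar RNAs, the role lists, and the 3 highest and the lowest gene of other lists. Copies, the ends of Rps24, other leading transcripts, hosts tied with these 6 and the sequences shown were chosen after their values were seen.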

Additional observations from a re-analysis of the deposited data

How the results depend on the processing

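Of the alternatives tried, 1 reversed a direction: with near-identical copies added, chosen after seeing the data, the log2 ratio of Rpl36a to Rpl36al went from -0.59 to 0.0831, so that the first gene was higher in 7 of 7 pairs. In replicate 2 that reversal rested on counting Dtnb as a copy of Rpl36a. The median level of 164 TPM became 59.2 in the read-derived table, 273 as FPKM, 552 with protein-coding TPM scaled to 1000000, and 178 with copies added. The read-derived median is on another scale, as protein-coding genes held 29.9% of TPM from alignments and 11.8% from reads. Of the protein-coding part, the ribosomal protein genes held 5.19% from alignments and 4.74% from reads. The share of 1.32% of counts was 5.19% of TPM. The difference between large and small subunit, -0.38 log2, was -0.89 with means in place of medians, -0.29 in the read-derived table, -0.25 with copies added and -0.31 over genes at 1 TPM or more. The genes that differed between libraries, 0 at a ratio of 2, were 11 at a ratio of 1.5 (27.2% of all genes) and 81 with no ratio. The 6 differing leading transcripts were 2 where the transcript had to lead in every library and 3 where it had to hold 50% in both tables. The pyrimidine tract count went from 13 to 24 with the wider definition. Without replicate 1, 2 or 3 in turn, the median ranged from 159 to 169 TPM and the subunit difference from -0.39 to -0.37 log2. Beyond these differences of scale, the cause of the changes was not tested. Without a pseudocount the pairs of Rpl3 and Rpl10 give no value, since the second gene is at 0. No paired analysis was possible because there is 1 group. Replicate 1 has the lowest depth, which limits genes near 0 such as Rpl3l most.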
